A study of Mus musculus with 9 samples.

Results

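The genes described here are 46 regulators of chromatin and DNA methylation: enzymes that write and erase marks on DNA and histones, remodelers that move nucleosomes, and silencing factors that act with them, Usp22 included. They were taken by gene name from the 24493 genes of the deposited expression table, and all 46 were found there. RNA came from cultured mouse pancreatic tumor cells and was sequenced in 9 libraries of 3 groups: escape e1, escape e2 and parental, with 3 libraries each. The escape lines are immunotherapy-resistant cells obtained from the parental line, and the comparison asks how their expression differs from it. All 3 groups share a C57BL/6 background, growth in DMEM with 10% FBS and no treatment; the labels name no driver allele of the tumor line. Each escape group is a single derived line. Nothing in the labels tells if the 3 libraries per line were grown as separate cultures, and p-values therefore cover only the spread between libraries.

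DNA methylation is copied at replication by Dnmt1, set on new sites by Dnmt3a and Dnmt3b, and oxidized by the TET enzymes as a step toward its removal. Polycomb repressive complex PRC2 methylates histone H3K27, and Setdb1, the Suv39h enzymes and the Ehmt pair methylate H3K9, which HP1 proteins bind; both marks go with silent genes. In human pancreatic cancer the SWI/SNF remodeler subunits and the KMT2 methyltransferases are among the chromatin genes known to be mutated repeatedly.

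Abundances are in TPM, which is per transcript length and adds up to 1000000 per library; read depth is therefore unknown. Each library had between 11188 and 12039 genes at 1 TPM or more, and the 12769 genes at that level in at least 3 libraries were tested. Library 1 of e1 stood apart: its Pearson correlation over genes with both other e1 libraries was 0.9868, while the other within-group values ran from 0.991 to 0.9948. It was above both other e1 libraries for 32 of the 46 regulators and below both for 10, while e2 library 1 was above both other e2 libraries for 34. Parental library 1 was below both other parental libraries for 25 and above both for 16, and a single gene, Mir6236, took 9.48% of its TPM, against 3.92% to 8.58% in the other libraries. Markers of ductal and epithelial tumor cells, 9 genes, summed to 1185 to 1223 TPM in e1, 1718 to 1783 TPM in e2 and 8522 to 9709 TPM in parental libraries. The 9 fibroblast markers summed to 237 to 261 TPM in e1, 262.4 to 272.1 TPM in e2 and 0.680 to 1.03 TPM in parental libraries, with the fibroblast gene Lum listed at 0 throughout. At a mean of 1 TPM or more were 6 epithelial and 5 fibroblast markers in e1, 7 and 7 in e2, and 9 and 0 in parental cells; Col1a2, Dcn and Pdgfrb were also listed at 0 in all parental libraries. The leukocyte gene Cd3e was listed at 0 in every library. The part of these shifts in the results below was not tested, and in bulk RNA fewer cells of a type and less RNA per cell cannot be told apart.

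In e1, most regulators that changed were higher than in parental cells, while in e2 most were lower. Of the 44 regulators tested, 23 rose and 5 fell in e1, and 16 did not pass; the median log2 fold change was 0.24. In e2, 10 rose and 20 fell against parental cells, 14 did not pass, and the median was -0.05. These shares lay a little below the background: 63.6% of the tested regulators passed in e1, where 70.6% of all tested genes passed at a limma adjusted p under 0.05, and 68.2% in e2, where 73.5% of all tested genes did. By direction, 35.7% of all tested genes rose and 34.9% fell in e1, and 40.8% rose and 32.7% fell in e2, with medians of 0.02 in e1 and 0.07 in e2. Of 240 other chromatin genes tested, pooled from the lists below without germline and proliferation genes, 94 rose and 64 fell in e1. In e2, 74 of them rose and 90 fell. Of this pool, 65.8% passed in e1 and 68.3% in e2. Counts given for single lists below are to be read beside the shares of all tested genes. Both comparisons use the same parental libraries.

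The changes were moderate in size. The median absolute log2 fold change of the regulators was 0.27 in e1 and 0.24 in e2, where all tested genes had 0.44 in e1 and 0.47 in e2. Changes of at least 1 on the log2 scale of TPM + 1 occurred for 1 regulator in e1 and 2 in e2. This count depends on the scale: Tet2, at 0.69 in e2, had a ratio of mean TPM of 2.3 there. Its e2 value reached 1.12 among the alternative settings. Libraries did not overlap between e1 and parental cells for 28 regulators, beside 71.4% of all tested genes, and between e2 and parental cells for 31, beside 81.4%. Without library 1 of e1, 25 regulators rose and 8 fell in e1; the added ones were Ezh1 and Arid1b among those higher, and Eed, Ep300 and Asxl1 among those lower. Summed over all 46, the regulators had 2489, 2370 and 2372 TPM in e1, 1871, 1801 and 1813 TPM in e2, and 1941, 2110 and 2091 TPM in parental libraries, so the e1 sums were highest and the e2 sums lowest, with no overlap. Of 20 proliferation genes, 12 rose and 3 fell in e1, and 9 rose and 4 fell in e2.

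**Figure D1:**
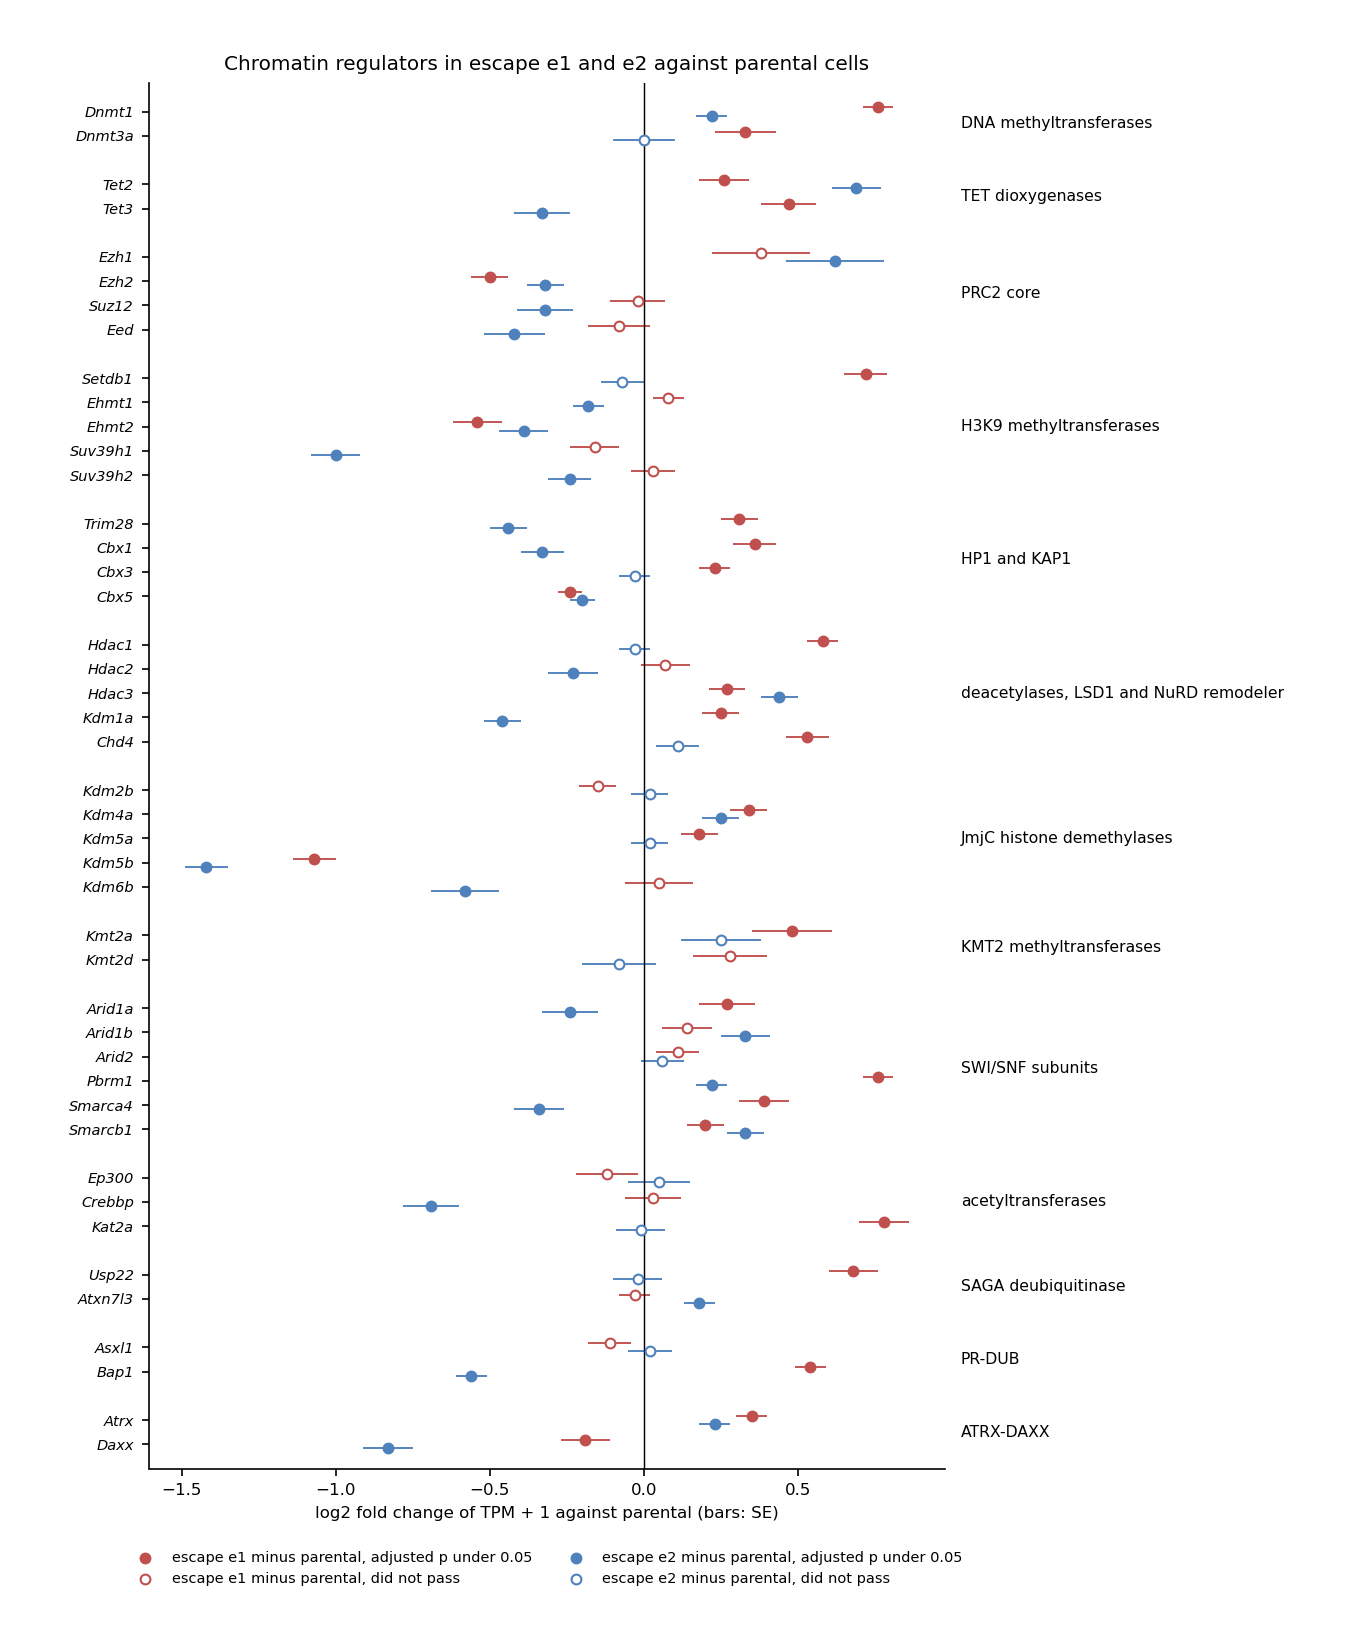
Log2 fold change of TPM + 1 against parental cells (x axis) for the 44 tested regulators, ordered by role (y axis), in e1 (red) and e2 (blue); bars are SE, and filled points passed at an adjusted p under 0.05. Kdm5b lies farthest left in both lines, at -1.07 in e1 and -1.42 in e2, and 7 genes such as Bap1 have filled points on opposite sides of 0.

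Promoters of the regulators were rich in CpG, the dinucleotide that DNA methyltransferases act on. RefSeq promoters of the mouse assembly GRCm38.p6, taken as the 250 bases before each annotated start, were found for 40 of the 46 genes and numbered 55; Kdm5a, Hdac1, Kdm6b, Usp22, Hdac3 and Arid2 were not matched. Their median number of CpG was 25, against 16 for promoters of all tested genes and 6 for all 32851 promoters. The motif GGGCGG, bound by Sp family factors, was present on either strand in 78.2% of the regulators' promoters, against 58.3% for tested genes and 32.7% for all promoters. The E-box CACGTG was present in 10.9%, against 8.27% and 6.02%. The E2F motif TTNGCGC was present in 12.7%, against 9.02% and 5.19%, and CCAAT, bound by NF-Y, in 27.3%, against 35.6% and 33.8%. CCGGAAG, GCATGCGC and TGACGTCA, motifs of ETS factors, NRF1 and CREB, were each found in fewer than 6 of the 55. The ETS motif was present in 9.09%, against 13.6% for tested genes and 6.91% for all promoters. The NRF1 motif was present in 1.82%, against 4.22% and 2.26%, and the CREB motif in 1.82%, against 2.58% and 1.55%. These shares count windows, in the regulators and in the background alike, so a gene with several annotated starts counts more than once. Daxx did so for the E2F motif, through overlapping windows, and Ehmt2 for the E-box. A match describes letters in the window, and no binding or methylation was measured.

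The 4 promoters below belong to genes that the results turn on. Kdm5b, on chromosome 1 (chr1:134559928-134560177, plus strand), fell most in both lines among the 44 tested regulators, on the scale of log2(TPM + 1). Tet2, on chromosome 3 (chr3:133544391-133544640, minus strand), rose most of these in e2. Bap1 (chr14:31251239-31251488, plus strand) and Pbrm1 (chr14:31018888-31019137, plus strand) lie close together on chromosome 14, rose together in e1 and moved in opposite directions in e2. Capitals mark GGGCGG or its complement CCGCCC, and CACGTG; the sequences run 5′ to 3′ on the gene's strand.
Kdm5b: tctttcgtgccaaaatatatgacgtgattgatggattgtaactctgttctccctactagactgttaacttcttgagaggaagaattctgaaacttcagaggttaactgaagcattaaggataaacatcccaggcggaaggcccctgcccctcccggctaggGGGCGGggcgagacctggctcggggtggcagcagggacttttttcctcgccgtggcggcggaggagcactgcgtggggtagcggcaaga
Tet2: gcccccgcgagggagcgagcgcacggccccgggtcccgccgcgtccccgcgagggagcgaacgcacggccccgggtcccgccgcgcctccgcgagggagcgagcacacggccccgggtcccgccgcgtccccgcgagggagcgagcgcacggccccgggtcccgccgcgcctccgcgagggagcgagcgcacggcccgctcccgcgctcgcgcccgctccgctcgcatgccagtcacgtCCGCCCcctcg
Bap1: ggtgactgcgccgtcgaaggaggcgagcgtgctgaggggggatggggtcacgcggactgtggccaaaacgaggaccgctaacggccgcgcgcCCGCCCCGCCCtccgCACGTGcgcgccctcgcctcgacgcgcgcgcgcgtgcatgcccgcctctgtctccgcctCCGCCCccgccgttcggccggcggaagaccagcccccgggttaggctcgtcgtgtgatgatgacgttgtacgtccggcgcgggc
Pbrm1: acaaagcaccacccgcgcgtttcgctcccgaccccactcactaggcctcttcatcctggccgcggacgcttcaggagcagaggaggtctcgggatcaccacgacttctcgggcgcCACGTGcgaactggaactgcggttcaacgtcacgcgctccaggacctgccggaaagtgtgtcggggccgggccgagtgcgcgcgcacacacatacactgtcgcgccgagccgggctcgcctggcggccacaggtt
The Tet2 window held 51 CpG, the most of the 55, and those of Bap1, Pbrm1 and Kdm5b held 43, 31 and 13. Bap1 and Pbrm1 each carried 1 E-box, Bap1 also had 3 copies of the Sp motif, of which a pair overlap, and the other windows had 1 match each.

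Among the DNA methyltransferases, the maintenance enzyme rose in both lines. Dnmt1 had 136.6, 126.8 and 125.4 TPM in e1, 89.88, 88.1 and 88.53 TPM in e2, and 75.54, 75.45 and 77.05 TPM in parental libraries. Every e1 library was above every e2 library, and every e2 library above every parental one. The log2 fold change was 0.76 ± 0.05 in e1 (SE; adjusted p = 5.41e-07) and 0.22 ± 0.05 in e2 (adjusted p = 0.0024). The e2 change fell short after median-ratio scaling (0.13, adjusted p = 0.0623) and with the deposited rlog values (0.11, adjusted p = 0.0896). Dnmt3a, a de novo enzyme, had 5.776, 5.083 and 5.034 TPM in e1, 4.444, 3.697 and 3.994 TPM in e2, and 4.729, 3.701 and 3.696 TPM in parental libraries. Its e1 libraries were the high ones, and e2 and parental libraries overlapped. It rose by 0.33 ± 0.10 in e1 (adjusted p = 0.0179) and stood at 0.0 ± 0.10 in e2 (adjusted p = 0.971); without parental library 2 or 3 the e1 value was 0.28 and did not pass (adjusted p = 0.0661 and 0.0673).

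Dnmt3b, the other de novo enzyme, was scarce and went the other way. It had 0.685, 0.510 and 0.581 TPM in e1, 0.512, 0.293 and 0.259 TPM in e2, and 1.51, 0.982 and 1.09 TPM in parental libraries, and so was not among the genes tested. Both escape lines lay below all parental libraries. With no filter on low values its log2 fold change was -0.46 ± 0.11 in e1 (adjusted p = 0.00673) and -0.69 ± 0.11 in e2 (adjusted p = 0.000564).

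Genes that read or assist DNA methylation, 17 tested, moved in both directions: 4 rose and 6 fell in e1, and 6 rose and 8 fell in e2. Zfp57, a zinc finger protein that keeps methylation at imprinted regions, fell by 2.32 ± 0.15 on the log2 scale in e1 (adjusted p = 4.59e-07) and by 3.09 ± 0.15 in e2 (adjusted p = 5.44e-08). It averaged 3.73 ± 0.965 TPM in e1, 1.75 ± 0.167 TPM in e2 and 22.5 ± 2.81 TPM in parental cells (mean ± SD, n = 3 each, as for the means below). Hells, a remodeler needed for normal DNA methylation, fell by 1.0 ± 0.11 in e2 (adjusted p = 1.88e-05). Its partner Cdca7 rose by 0.87 ± 0.06 in e1 and was lower in e2 than in e1 by 1.49 ± 0.06 (adjusted p = 3.92e-08). Of 23 germline genes whose promoters are held silent by DNA methylation in somatic cells, 0 passed the filter. They summed to 0.739 to 1.26 TPM in e1, 1.63 to 2.31 TPM in e2 and 1.0 to 1.47 TPM in parental libraries. Brdt and Sycp3 made up most of the e2 sum, with means of 0.908 and 0.718 TPM in e2, against 0.187 and 0.26 TPM in parental cells; Stag3 had 0.00593 TPM in e2, against 0.541 TPM in parental cells, and 7 of the 23 were listed at 0 in every library.

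The TET dioxygenases divided in e2. Tet2 had 1.141, 1.385 and 1.277 TPM in e1, 2.03, 1.98 and 2.12 TPM in e2, and 1.01, 0.746 and 0.919 TPM in parental libraries. The groups did not overlap, and e2 was highest. Tet2 rose by 0.69 ± 0.08 in e2 (adjusted p = 3.85e-05) and by 0.26 ± 0.08 in e1 (adjusted p = 0.0157); the e1 call was lost without e1 library 2 (0.23, adjusted p = 0.0611) or parental library 2 (0.21, adjusted p = 0.0599). Tet3 had 5.47, 4.37 and 4.69 TPM in e1, 2.25, 2.33 and 2.47 TPM in e2, and 3.619, 3.067 and 3.0 TPM in parental libraries. Its e1 libraries were all above and its e2 libraries all below the parental ones. Tet3 rose by 0.47 ± 0.09 in e1 (adjusted p = 0.00161) and fell by 0.33 ± 0.09 in e2 (adjusted p = 0.0100). Tet1 was near absent, at 0.1145, 0.1003 and 0.1395 TPM in e1, 0.0222, 0.0158 and 0.0208 TPM in e2, and 0.0212, 0.0123 and 0 TPM in parental libraries, and it was not among the genes tested. With no filter on low values it was at 0.14 ± 0.02 in e1 (adjusted p = 0.000326), at 0.01 ± 0.02 in e2 (adjusted p = 0.651) and at -0.13 ± 0.02 (adjusted p = 0.000584) between e2 and e1; the e1 libraries did not overlap those of the other groups, all at levels far under 1 TPM.

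Of the PRC2 core, Ezh2, the main H3K27 methyltransferase of dividing cells, fell in both lines. It had 62.0, 58.48 and 58.02 TPM in e1, 70.78, 67.91 and 64.2 TPM in e2, and 79.41, 89.2 and 86.11 TPM in parental libraries. All escape libraries were below all parental ones. The log2 fold change was -0.50 ± 0.06 in e1 (adjusted p = 5.6e-05) and -0.32 ± 0.06 in e2 (adjusted p = 0.00105). Ezh1, the alternative catalytic subunit, had 5.99, 9.42 and 10.08 TPM in e1, 10.06, 9.89 and 10.0 TPM in e2, and 5.40, 6.61 and 6.46 TPM in parental libraries. Library 1 of e1 fell among the parental values, while the other e1 libraries were close to e2. Ezh1 rose by 0.62 ± 0.16 in e2 (adjusted p = 0.00527); in e1 it was at 0.38 ± 0.16 (adjusted p = 0.0514), and without e1 library 1 at 0.59 (adjusted p = 0.000105). In e1 it also passed with all libraries under median-ratio scaling (adjusted p = 0.0417), rlog values (adjusted p = 0.0264) and a filter of 5 TPM (adjusted p = 0.0497).

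The remaining core subunits, needed for PRC2 activity, fell in e2. Suz12 averaged 61.1 ± 6.15 TPM in e1, 49.2 ± 2.12 TPM in e2 and 61.8 ± 5.17 TPM in parental cells, and Eed 48.1 ± 6.66 TPM in e1, 37.7 ± 1.36 TPM in e2 and 50.9 ± 4.83 TPM in parental cells. In e2, Suz12 fell by 0.32 ± 0.09 (adjusted p = 0.00688) and Eed by 0.42 ± 0.10 (adjusted p = 0.00393). In e1 Suz12 was at -0.02 and Eed at -0.08, and neither passed, though Eed passed at -0.19 without e1 library 1 (adjusted p = 0.0394). Of 9 PRC2 accessory genes, 6 rose and 2 fell in e1, and 4 rose and 3 fell in e2. Phf19, a Tudor protein that brings PRC2 to chromatin, had 14.44, 16.27 and 14.74 TPM in e1, 21.76, 22.13 and 23.27 TPM in e2, and 4.49, 4.74 and 5.05 TPM in parental libraries, and rose by 1.49 ± 0.07 in e1 (adjusted p = 5.37e-08) and 2.02 ± 0.07 in e2 (adjusted p = 5.76e-09). Epop, which joins PRC2 to elongin, fell by 1.71 ± 0.09 in e2 (adjusted p = 1.11e-07). Of 22 genes of PRC1, the complex that ubiquitinates H2A, 5 rose and 6 fell in e1, and 8 rose and 7 fell in e2; in e2 Pcgf6 fell by 1.13 ± 0.09 and Cbx7 rose by 0.79 ± 0.09.

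Among the H3K9 methyltransferases, Setdb1 rose in e1, and each of the others fell in e2. Setdb1, which silences retroelements with Trim28, had 46.33, 43.03 and 43.15 TPM in e1, 24.9, 24.77 and 25.81 TPM in e2, and 24.17, 28.2 and 27.3 TPM in parental libraries. The e1 libraries stood far above both other groups, which overlapped. It rose by 0.72 ± 0.07 in e1 (adjusted p = 7.6e-06) and was at -0.07 ± 0.07 in e2 (adjusted p = 0.345), where it passed at -0.16 with median-ratio scaling, at -0.15 with rlog values and at -0.14 without parental library 1. Suv39h1, a methyltransferase of pericentric heterochromatin, had 90.19, 92.63 and 91.43 TPM in e1, 51.81, 50.55 and 49.18 TPM in e2, and 88.12, 111.0 and 109.5 TPM in parental libraries. Its e2 libraries were the low ones, and e1 lay within the parental range. It fell by 1.0 ± 0.08 in e2 (adjusted p = 3e-06) and was at -0.16 ± 0.08 in e1 (adjusted p = 0.111), passing there at -0.27 without parental library 1 (adjusted p = 0.000745) and at -0.17 with median-ratio scaling (adjusted p = 0.0464).

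Ehmt2, the G9a enzyme, fell in both lines, and its partner Ehmt1 fell in e2. Ehmt2 had 51.48, 62.63 and 60.58 TPM in e1, 65.46, 63.23 and 64.36 TPM in e2, and 80.49, 88.83 and 85.47 TPM in parental libraries, without overlap between either line and parental cells. The fold change was -0.54 ± 0.08 in e1 (adjusted p = 0.000139) and -0.39 ± 0.08 in e2 (adjusted p = 0.00106). Ehmt1 averaged 25.2 ± 1.16 TPM in e1, 20.9 ± 0.177 TPM in e2 and 23.9 ± 0.481 TPM in parental cells, and fell by 0.18 ± 0.05 in e2 (adjusted p = 0.0111). Suv39h2, the second Suv39h enzyme, fell by 0.24 ± 0.07 in e2 (adjusted p = 0.0126), a call lost without e2 library 2 or parental library 2 (adjusted p = 0.0536 and 0.0512). Of 31 other lysine or arginine methyltransferases and partners, 14 rose and 8 fell in e1, and 3 rose and 18 fell in e2. Setd7, a lysine methyltransferase of H3K4 and other proteins, rose in both, by 2.02 ± 0.05 in e1 and 1.04 ± 0.05 in e2, and Prmt5, an arginine methyltransferase, rose by 1.14 ± 0.11 in e1 (adjusted p = 9.91e-06).

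Of the 4 silencing partners of these enzymes, Trim28 and Cbx1 rose in e1 and fell in e2. Trim28, the KAP1 corepressor that carries Setdb1 to zinc finger proteins, had 315.3, 292.3 and 291.7 TPM in e1, 179.8, 175.7 and 177.7 TPM in e2, and 220.7, 254.5 and 250 TPM in parental libraries. Every e1 library was above and every e2 library below the parental range. Trim28 rose by 0.31 ± 0.06 in e1 (adjusted p = 0.0015) and fell by 0.44 ± 0.06 in e2 (adjusted p = 0.000148). Cbx1, the HP1 beta protein, averaged 103.3 ± 5.99 TPM in e1, 63.6 ± 2.09 TPM in e2 and 80.2 ± 7.41 TPM in parental cells, with the same separation of libraries; it rose by 0.36 ± 0.07 in e1 (adjusted p = 0.00168) and fell by 0.33 ± 0.07 in e2 (adjusted p = 0.00308). Cbx3, HP1 gamma, rose by 0.23 ± 0.05 in e1 (adjusted p = 0.00171) and was at -0.03 in e2, where it passed at -0.12 with median-ratio scaling and at -0.11 with rlog values. Cbx5, HP1 alpha, fell in both, by 0.24 ± 0.04 in e1 (adjusted p = 0.00103) and 0.20 ± 0.04 in e2 (adjusted p = 0.00279). Cbx1 and Cbx3 have processed pseudogenes, and the labels do not tell how shared reads were assigned. Of 17 genes of the HUSH complex and related silencing, 5 rose and 5 fell in e1, and 4 rose and 9 fell in e2. The HUSH subunit Mphosph8 rose by 0.96 ± 0.09 in e1, and Morc2a, an ATPase that acts with HUSH, fell by 0.96 ± 0.12 in e2.

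Histone deacetylases and the demethylase Kdm1a, which share corepressor complexes, were mostly higher in e1. Hdac1 had 134.4, 150.1 and 144.1 TPM in e1, 95.37, 91.23 and 93.39 TPM in e2, and 95.37, 94.73 and 96.18 TPM in parental libraries. The e1 libraries were high, while e2 and parental libraries overlapped. Hdac1 rose by 0.58 ± 0.05 in e1 (adjusted p = 6.54e-06) and was at -0.03 ± 0.05 in e2, where it passed at -0.12 with median-ratio scaling and at -0.11 with rlog values. Kdm1a, known as LSD1, had 59.78, 54.35 and 53.22 TPM in e1, 34.28, 32.63 and 34.18 TPM in e2, and 45.58, 46.52 and 48.04 TPM in parental libraries. The 3 groups were separate, e1 above and e2 below parental cells. It rose by 0.25 ± 0.06 in e1 (adjusted p = 0.00345) and fell by 0.46 ± 0.06 in e2 (adjusted p = 6.2e-05).

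Chd4, the ATPase of the NuRD complex, averaged 95.3 ± 9.96 TPM in e1, 71.0 ± 1.86 TPM in e2 and 65.6 ± 2.57 TPM in parental cells, and rose by 0.53 ± 0.07 in e1 (adjusted p = 0.000136); in e2 it was at 0.11, passing without e1 library 1 (adjusted p = 0.0367). Hdac3, the deacetylase of the NCoR and SMRT complexes, rose in both lines. It averaged 92.01 ± 1.94 TPM in e1, 103.0 ± 0.909 TPM in e2 and 76.0 ± 5.22 TPM in parental cells, with fold changes of 0.27 ± 0.06 in e1 (adjusted p = 0.00187) and 0.44 ± 0.06 in e2 (adjusted p = 8.35e-05). Hdac2, the close relative of Hdac1, was at 0.07 ± 0.08 in e1 and fell by 0.23 ± 0.08 in e2 (adjusted p = 0.0240), a call lost without e2 library 2 or 3 or parental library 2 or 3 (adjusted p between 0.0707 and 0.0829). Of 31 other deacetylases and corepressors, 15 rose and 5 fell in e1, and 12 rose and 10 fell in e2. Hdac5, a class II deacetylase, had 25.38, 29.48 and 30.83 TPM in e1, 54.59, 53.09 and 55.77 TPM in e2, and 12.08, 11.11 and 10.98 TPM in parental libraries, and rose by 1.25 ± 0.08 in e1 and 2.16 ± 0.08 in e2.

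Kdm5b, an H3K4 demethylase, showed the largest change of the 44 tested regulators in both lines. It had 4.26, 4.09 and 4.13 TPM in e1, 3.25, 2.94 and 3.03 TPM in e2, and 9.54, 9.79 and 10.26 TPM in parental libraries. The parental values were more than 5 TPM above every escape library. Kdm5b fell by 1.07 ± 0.07 on the log2 scale in e1 (adjusted p = 4.46e-07) and by 1.42 ± 0.07 in e2 (adjusted p = 5.54e-08), with ratios of mean TPM of 0.422 in e1 and 0.312 in e2. It was lower in e2 than in e1 by 0.34 ± 0.07 (adjusted p = 0.00129). Its relative Kdm5a averaged 9.49 ± 0.204 TPM in e1, 8.37 ± 0.106 TPM in e2 and 8.26 ± 0.524 TPM in parental cells; it rose by 0.18 ± 0.06 in e1 (adjusted p = 0.0277), a call lost without e1 library 2 or parental library 2 or 3 (adjusted p between 0.0812 and 0.0908), with median-ratio scaling and with a fit of e1 and parental libraries alone.

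Kdm6b, an H3K27 demethylase, had 10.27, 7.45 and 7.98 TPM in e1, 5.21, 4.85 and 5.32 TPM in e2, and 8.36, 7.76 and 8.43 TPM in parental libraries. The e2 libraries were low, and the e1 and parental libraries overlapped. It fell by 0.58 ± 0.11 in e2 (adjusted p = 0.00071) and was at 0.05 ± 0.11 in e1. Kdm4a, an H3K9 and H3K36 demethylase, rose in both lines, by 0.34 ± 0.06 in e1 (adjusted p = 0.000408) and 0.25 ± 0.06 in e2 (adjusted p = 0.00275). Kdm2b, which brings PRC1 to CpG islands, was at -0.15 ± 0.06 in e1 (adjusted p = 0.0591) and 0.02 in e2; in e1 it passed without e1 library 2 (-0.18) or parental library 1 (-0.18), and with median-ratio scaling, the 10 highest genes removed or rlog values (-0.16, -0.15 and -0.13). Of 17 other demethylases, 7 rose and 3 fell in e1, and 9 rose and 4 fell in e2; the JmjC proteins Phf2 and Riox2 were at 1.27 ± 0.07 and -1.32 ± 0.10 in e2.

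The H3K4 methyltransferase Kmt2a averaged 5.61 ± 0.936 TPM in e1, 4.58 ± 0.222 TPM in e2 and 3.74 ± 0.698 TPM in parental cells, and rose by 0.48 ± 0.13 in e1 (adjusted p = 0.00712). In e2 it was at 0.25 ± 0.13 (adjusted p = 0.107), passing at 0.36 without parental library 1 and at 0.25 without e1 library 1. Kmt2d, its relative at enhancers, averaged 3.14 ± 0.212 TPM in e1, 2.24 ± 0.0586 TPM in e2 and 2.45 ± 0.628 TPM in parental cells. Parental library 1, at 3.17 TPM, was above both other parental libraries, at 2.14 and 2.04 TPM. Kmt2d was at 0.28 ± 0.12 in e1 (adjusted p = 0.0614), and at 0.42 without that library (adjusted p = 0.00115).

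The 6 SWI/SNF subunits among the regulators rose in e1 where they passed, while in e2 they split. Smarca4, the BRG1 ATPase, had 95, 78.04 and 78.75 TPM in e1, 52.44, 48.36 and 48.8 TPM in e2, and 59.62, 65.18 and 65.6 TPM in parental libraries. The groups did not overlap, with e1 above and e2 below parental cells. Smarca4 rose by 0.39 ± 0.08 in e1 (adjusted p = 0.00188; 0.30 without e1 library 1) and fell by 0.34 ± 0.08 in e2 (adjusted p = 0.00409). Arid1a, a DNA-binding subunit, had 16.95, 13.41 and 13.34 TPM in e1, 9.82, 9.89 and 9.71 TPM in e2, and 12.43, 11.42 and 11.56 TPM in parental libraries. These groups were also separate, but the e1 rise of 0.27 ± 0.09 (adjusted p = 0.0205) stood at 0.17 without e1 library 1 (adjusted p = 0.0201). The Arid1a fall of 0.24 ± 0.09 in e2 (adjusted p = 0.0328) did not pass when any 1 of the e2 or parental libraries was left out (adjusted p between 0.0525 and 0.0943), and the e1 rise did not pass without parental library 2 or 3 (adjusted p = 0.0639 and 0.0603).

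Arid1b, the alternative to Arid1a in the same position, averaged 8.07 ± 0.721 TPM in e1, 9.36 ± 0.375 TPM in e2 and 7.24 ± 0.288 TPM in parental cells. It rose by 0.33 ± 0.08 in e2 (adjusted p = 0.00311) and was at 0.14 in e1, passing there at 0.20 without e1 library 1 (adjusted p = 0.0124) and at 0.13 with rlog values (adjusted p = 0.0453). Pbrm1, the PBAF subunit whose promoter is printed above, had 32.43, 30.98 and 31.09 TPM in e1, 22.43, 20.92 and 20.97 TPM in e2, and 17.61, 18.4 and 18.65 TPM in parental libraries. All 3 groups were separate, e1 highest. Pbrm1 rose by 0.76 ± 0.05 in e1 (adjusted p = 1.08e-06) and by 0.22 ± 0.05 in e2 (adjusted p = 0.00405; 0.12 with rlog values, adjusted p = 0.0509). Smarcb1, a core subunit, rose by 0.33 ± 0.06 in e2 (adjusted p = 0.00117) and by 0.20 ± 0.06 in e1 (adjusted p = 0.0182), the e1 call being lost without e1 library 3 or parental library 1 (adjusted p = 0.064 and 0.051). Arid2, of PBAF, did not pass in any comparison, with 10.7 ± 0.577 TPM in e1, 10.4 ± 0.557 TPM in e2 and 9.87 ± 0.354 TPM in parental cells. Of 19 other SWI/SNF subunits, 9 rose and 4 fell in e1, and 4 rose and 9 fell in e2. Of 33 other remodelers and chaperones, 12 rose and 10 fell in e1, and 10 rose and 13 fell in e2. The ISWI ATPase Smarca1 fell by 2.96 ± 0.09 in e1 and fell by 2.55 ± 0.09 in e2, having 8.01 ± 0.465 TPM in parental cells and a mean under 1 TPM in either line.

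**Figure D2:**
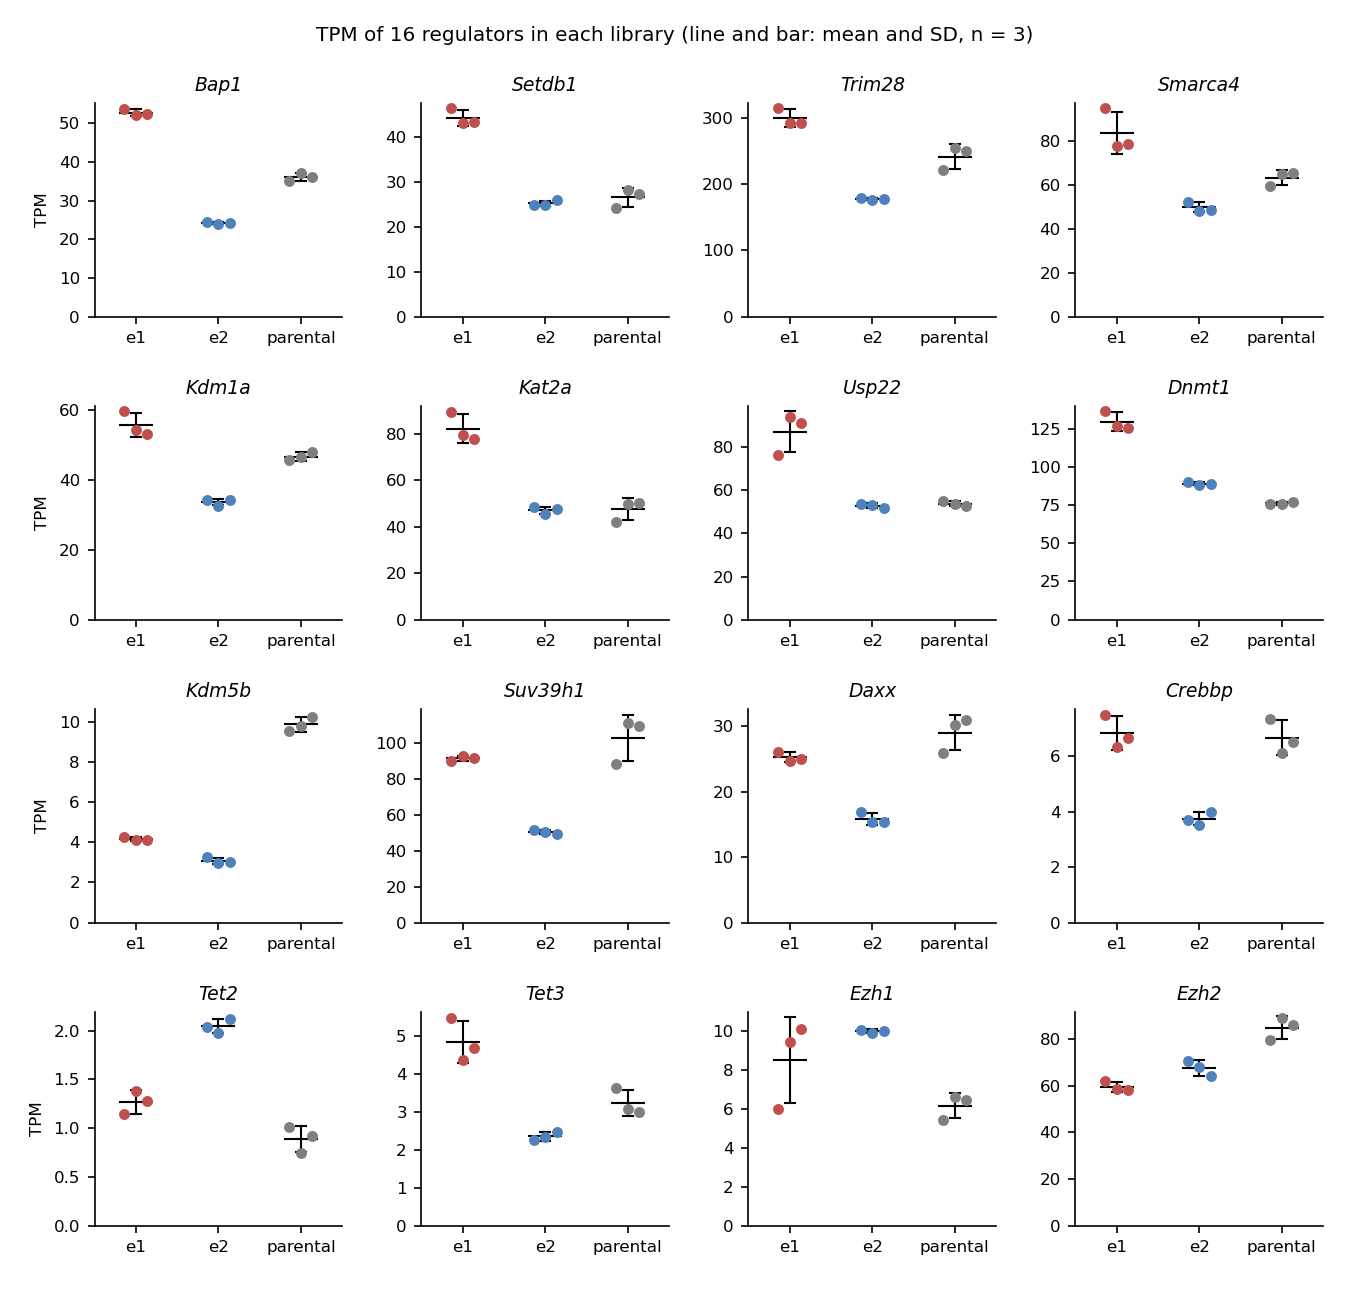
TPM (y axis, from 0) of 16 regulators in each library of e1, e2 and parental cells; points are libraries, lines and bars the mean and SD of n = 3. Bap1, Trim28, Smarca4 and Kdm1a lie above parental cells in e1 and below in e2, Setdb1, Kat2a and Usp22 are high in e1, and Kdm5b is low in both lines.

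The acetyltransferases and the SAGA complex differed by line. Kat2a, the GCN5 acetyltransferase of SAGA, had 89.51, 79.32 and 77.77 TPM in e1, 48.37, 45.33 and 47.52 TPM in e2, and 41.93, 49.93 and 50.33 TPM in parental libraries. Only its e1 libraries stood out, and e2 lay within the parental range. It rose by 0.78 ± 0.08 in e1 (adjusted p = 1.92e-05), the largest increase of a tested regulator there, and was at -0.01 ± 0.08 in e2 (adjusted p = 0.958). Usp22, the SAGA enzyme that removes ubiquitin from H2B, had 76.33, 94.09 and 91.49 TPM in e1, 53.82, 53.26 and 51.83 TPM in e2, and 54.95, 53.91 and 52.82 TPM in parental libraries. Library 1 of e1 was the lowest of the e1 libraries, and all were far above e2 and parental cells. Usp22 rose by 0.68 ± 0.08 in e1 (adjusted p = 2.82e-05; 0.77 without e1 library 1) and was at -0.02 ± 0.08 in e2 (adjusted p = 0.781). Atxn7l3, the adaptor that Usp22 needs for activity, did not follow it: it had 30.64, 29.82 and 29.33 TPM in e1, 34.33, 35.61 and 34.53 TPM in e2, and 28.88, 31.56 and 31.33 TPM in parental libraries. It was at -0.03 ± 0.05 in e1 (adjusted p = 0.64) and rose by 0.18 ± 0.05 in e2 (adjusted p = 0.0114), but with median-ratio scaling and rlog values the e2 change was 0.09 and 0.08 and did not pass.

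Crebbp and Ep300 encode paired acetyltransferases of enhancers. Crebbp had 7.499, 6.336 and 6.676 TPM in e1, 3.696, 3.53 and 4.004 TPM in e2, and 7.35, 6.12 and 6.53 TPM in parental libraries. The e2 libraries were low, and the others overlapped. Crebbp fell by 0.69 ± 0.09 in e2 (adjusted p = 7.4e-05) and was at 0.03 in e1. Ep300 had 13.97, 11.09 and 10.85 TPM in e1, 14.06, 12.97 and 13.52 TPM in e2, and 13.74, 12.06 and 13.31 TPM in parental libraries and did not pass in any comparison, except that it was at -0.23 in e1 without library 1 of that line (adjusted p = 0.0107). Of 33 other acetyltransferase, SAGA and bromodomain genes, 14 rose and 12 fell in e1, and 11 rose and 8 fell in e2. The SAGA subunit Taf9 had 231.3, 216.5 and 225.3 TPM in e1, 244.5, 248.6 and 239.8 TPM in e2, and 106.9, 98.84 and 95.67 TPM in parental libraries, rising by 1.15 ± 0.05 in e1 and 1.27 ± 0.05 in e2, while Supt3 fell by 1.07 ± 0.08 in e1.

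Bap1 showed the largest difference between the lines. This deubiquitinase of the PR-DUB complex, which removes ubiquitin from H2A, had 53.76, 52.12 and 52.57 TPM in e1, 24.61, 23.97 and 24.17 TPM in e2, and 35.05, 37.19 and 36.12 TPM in parental libraries. The groups were widely separate, e1 above and e2 below parental cells. It rose by 0.54 ± 0.05 in e1 (adjusted p = 5.3e-06) and fell by 0.56 ± 0.05 in e2 (adjusted p = 3.73e-06). Its cofactor Asxl1 had 18.07, 15.4 and 16.28 TPM in e1, 18.51, 17.57 and 18.23 TPM in e2, and 18.33, 17.46 and 17.89 TPM in parental libraries and did not pass in any comparison, but was at -0.17 in e1 without e1 library 1 (adjusted p = 0.0153). Of 12 other H2A deubiquitinases and PR-DUB partners, 4 rose and 3 fell in e1, and 3 rose and 2 fell in e2. Usp7, a deubiquitinase that binds Dnmt1, fell to 33.01 ± 1.36 TPM in e2, against 67.75 ± 2.44 TPM in parental cells (adjusted p = 2.24e-06).

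Atrx and Daxx together place histone H3.3 at heterochromatin and telomeres, and they moved apart. Atrx had 27.31, 26.08 and 26.82 TPM in e1, 25.38, 24.19 and 24.0 TPM in e2, and 20.04, 21.06 and 21.15 TPM in parental libraries. Both lines lay above parental cells, by 0.35 ± 0.05 in e1 (adjusted p = 0.000192) and 0.23 ± 0.05 in e2 (adjusted p = 0.00263). Daxx had 26.08, 24.59 and 25.02 TPM in e1, 16.9, 15.38 and 15.3 TPM in e2, and 25.89, 30.21 and 30.93 TPM in parental libraries. The e2 libraries were low, whereas e1 overlapped parental library 1. Daxx fell by 0.83 ± 0.08 in e2 (adjusted p = 6.28e-06); in e1 it was at -0.19 ± 0.08 (adjusted p = 0.0466), and this call was lost in 11 of the 18 alternatives, among them leaving out e1 library 2 or 3, parental library 2 or 3 or any e2 library (adjusted p between 0.0521 and 0.164).

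A direct comparison of the escape lines asked which of these differences hold between them. Of the 44 tested regulators, 6 were higher and 28 lower in e2 than in e1, and 10 did not pass; the median was -0.31, against 0.09 over all tested genes. Of all tested genes, 70.3% passed, 40.6% higher and 29.7% lower in e2, and 77.3% of the regulators did. Libraries of the lines did not overlap for 39 regulators, beside 76.5% of all tested genes. The largest values were those of Bap1 at -1.09 ± 0.05 (adjusted p = 6.68e-08), Suv39h1 at -0.84 ± 0.08, Tet3 at -0.80 ± 0.09, Setdb1 at -0.79 ± 0.07, Kat2a at -0.79 ± 0.08, Trim28 at -0.75 ± 0.06 and Smarca4 at -0.73 ± 0.08. Usp22 was lower in e2 by 0.70 ± 0.08 (adjusted p = 2.5e-05) and Dnmt1 by 0.54 ± 0.05 (adjusted p = 7.8e-06).

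Tet2, at 0.43 ± 0.08 (adjusted p = 0.00108), and Atxn7l3, at 0.21 ± 0.05 (adjusted p = 0.00551), were the largest of the 6 that were higher in e2 than in e1. With 0.1 TPM added in place of 1, the Tet2 value was 0.65 (adjusted p = 0.00362). Arid1b, Ezh2, Kdm2b and Hdac3 were the others, at 0.16 to 0.19. The count of 6 was unstable: it was 2 with median-ratio scaling, 1 with rlog values, 3 without e1 library 3, 2 without e2 library 1, 2 without e2 library 2 and 3 without e2 library 3. Kdm5a (-0.16) lost its call without e1 library 2 or 3, any e2 library or parental library 3, Kmt2d (-0.35) without e1 library 3 or any e2 library, and Dnmt3a (-0.32) without e2 library 2 or 3. Of the 20 proliferation genes, 6 were higher and 13 lower in e2 than in e1.

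**Figure D3:**
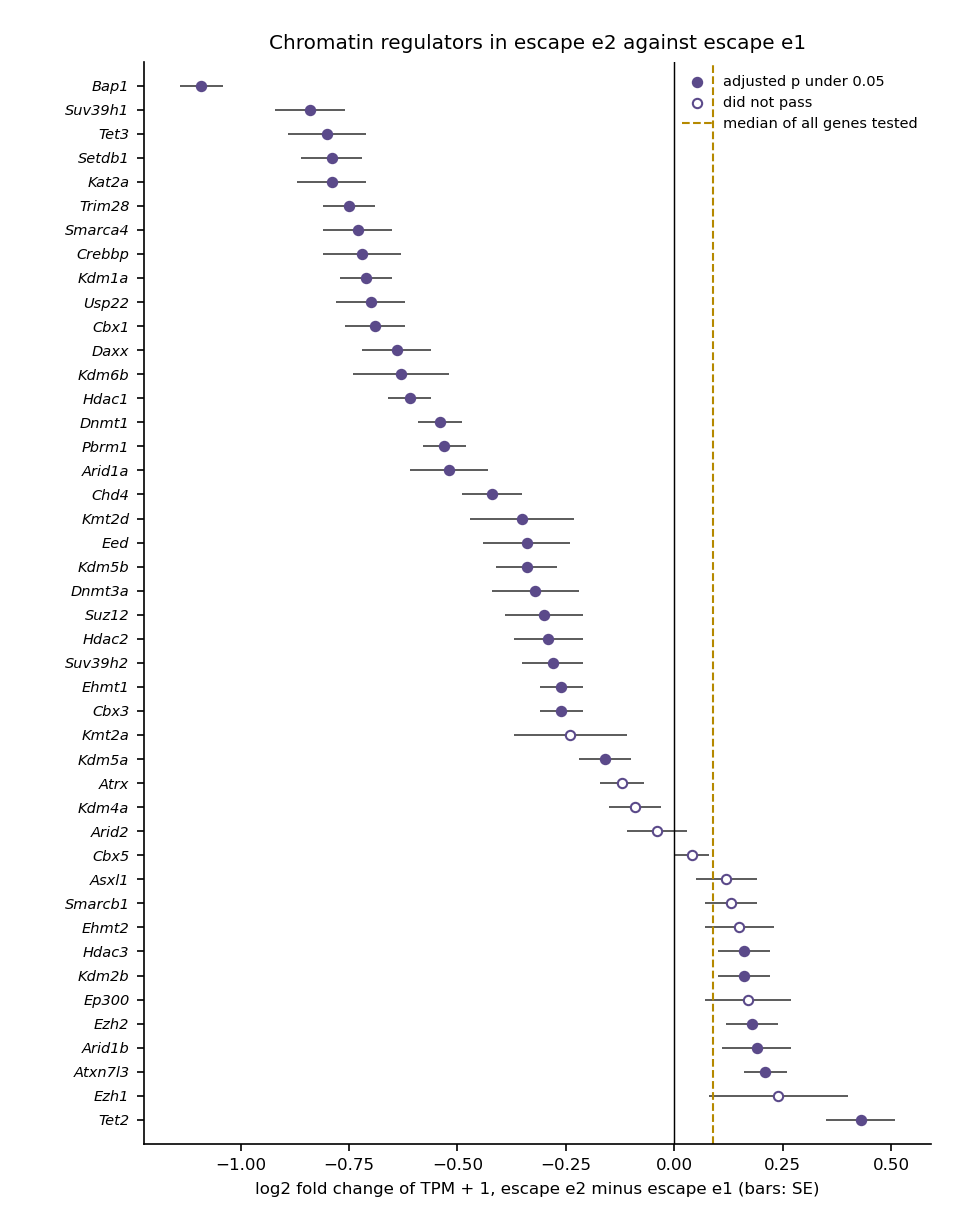
Log2 fold change of TPM + 1 in e2 minus e1 (x axis) for the 44 tested regulators in order of size (y axis); bars are SE, filled points passed, and the dashed line is the median of all tested genes, 0.09. Most points lie left of 0, with Bap1 at -1.09 and Tet2 at 0.43 at the ends.

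By the calls in all 3 comparisons, the regulators fell into many patterns, of which some are listed here. The e2 minus e1 value is the difference of the values against parental cells, so the 3 calls are not independent. The share of all tested genes with each pattern was not computed. Tet3, Trim28, Cbx1, Kdm1a, Arid1a, Smarca4 and Bap1 rose in e1, fell in e2 and were lower in e2 than in e1. Dnmt3a, Setdb1, Cbx3, Hdac1, Chd4, Kdm5a, Kat2a and Usp22, 8 genes, rose in e1, did not pass in e2 and were lower in e2 than in e1. Another 8, Suz12, Eed, Ehmt1, Suv39h1, Suv39h2, Hdac2, Kdm6b and Crebbp, did not pass in e1, fell in e2 and were lower in e2 than in e1. Kdm5b, Daxx, Ezh2, Ehmt2 and Cbx5 fell in both lines, and Tet2, Hdac3, Dnmt1, Pbrm1, Kdm4a, Smarcb1 and Atrx rose in both.

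Ratios between related enzymes within a library, in which a library's scaling largely cancels, shifted for several pairs. The ranges of ratios given below are of TPM with nothing added, while the log2 differences and their test use TPM + 0.1. With 3 libraries against 3 an exact two-sided permutation test cannot go below p = 0.1, which after adjustment over 30 comparisons becomes 0.13. Of the 30 differences, 10 moved by more than the spread between libraries with 1 TPM added and 10 with rlog values; those that moved became smaller, and the one between e2 and e1 for Dnmt3b to Dnmt3a, which overlapped, changed sign with 1 TPM added (-0.26, then 0.08). For Tet2 to Tet3 the difference between e2 and e1, 1.66, became 1.22 with 1 TPM added and 1.41 with rlog values. Kdm5b to Kdm5a ran from 0.423 to 0.448 in e1 and from 0.347 to 0.392 in e2, against 1.08 to 1.28 in parental libraries, so that the more abundant of the pair was Kdm5a in both escape lines and Kdm5b in parental cells. Tet2 to Tet3 was 0.851 to 0.903 in e2, against 0.243 to 0.306 in parental libraries, while e1, at 0.209 to 0.317, spanned the parental values. Ezh2 to Ezh1 was 5.76 to 10.3 in e1 and 6.42 to 7.04 in e2, against 13.3 to 14.7 in parental libraries.

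Dnmt3b to Dnmt3a was 0.1 to 0.119 in e1 and 0.0648 to 0.115 in e2, against 0.265 to 0.320 in parental libraries, although with 1 TPM added the differences of -1.28 and -1.54 on the log2 scale shrank to -0.78 and -0.70, and with rlog values to -0.93 and -0.97. Crebbp to Ep300 was 0.263 to 0.296 in e2, against 0.490 to 0.535 in parental libraries, and Arid1b to Arid1a 0.917 to 0.996 against 0.572 to 0.655. Suv39h2 to Suv39h1 was 0.172 to 0.186 in e2, against 0.0952 to 0.122. In each of these e2 and parental libraries did not overlap. The permutation test gave the smallest p it allows, 0.13 after adjustment, so no pair could pass. The ratios of Ehmt2 to Ehmt1 and of Hdac2 to Hdac1 were lower in both lines than in parental cells, by 0.63 and 0.51 on the log2 scale in e1 and by 0.21 and 0.20 in e2, and Kmt2d to Kmt2a was lower by 0.40 in e2.

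**Figure D4:**
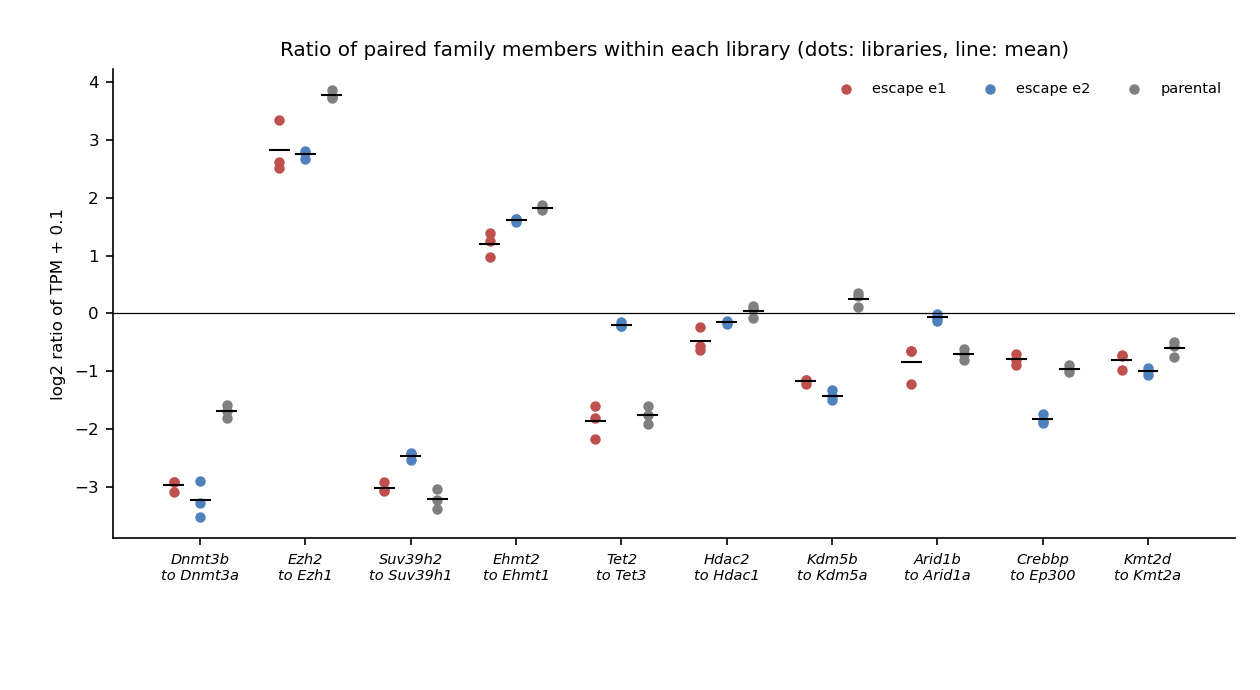
Log2 ratio of TPM + 0.1 (y axis) of 10 pairs of related regulators (x axis) in each library of e1, e2 and parental cells; points are libraries and lines are means. Both escape lines lie below parental cells for Kdm5b to Kdm5a, and e2 lies apart from both other groups for Tet2 to Tet3 and Crebbp to Ep300.

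Some changes went with those of neighbouring genes on the chromosome and others did not. All 46 regulators had a position in GRCm38.p6, and each was set beside the median log2 fold change of up to 10 tested genes on either side. Bap1 and Pbrm1 lie on chromosome 14, whose 408 tested genes had a median of 0.57 in e1 and 0.07 in e2. Their neighbours had medians of 0.72 and 0.80 in e1, near the genes' own 0.54 and 0.76. In e2 the neighbours of Bap1 were at 0.08 while Bap1 itself was at -0.56. Cbx1, on chromosome 11, was close to its neighbours in each comparison: they were at 0.42 in e1, -0.36 in e2 and -0.71 between e2 and e1, and Cbx1 itself at 0.36, -0.33 and -0.69. Crebbp lies on chromosome 16, whose median in e2 was -0.65, and its neighbours were at -0.43. Ehmt2 and Daxx lie on chromosome 17, with medians of -0.35 in e1 and -0.24 in e2. The neighbours of Ehmt2 were at -0.50 in e1, near its own -0.54. Those of Daxx were at -0.37 in e1 and -0.27 in e2, while Daxx itself was at -0.19 in e1 and -0.83 in e2. Hdac3 rose by 0.44 in e2, where its neighbours were at 0.91. By contrast, the neighbours of Kdm5b were at -0.02 in e1 and 0.23 in e2, those of Suv39h1 at 0.23 in e2, and those of Ezh2 at 0.22 in both lines. Whether DNA copy number differed between the lines was not measured, and its part in these values was not tested.

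**Figure D5:**
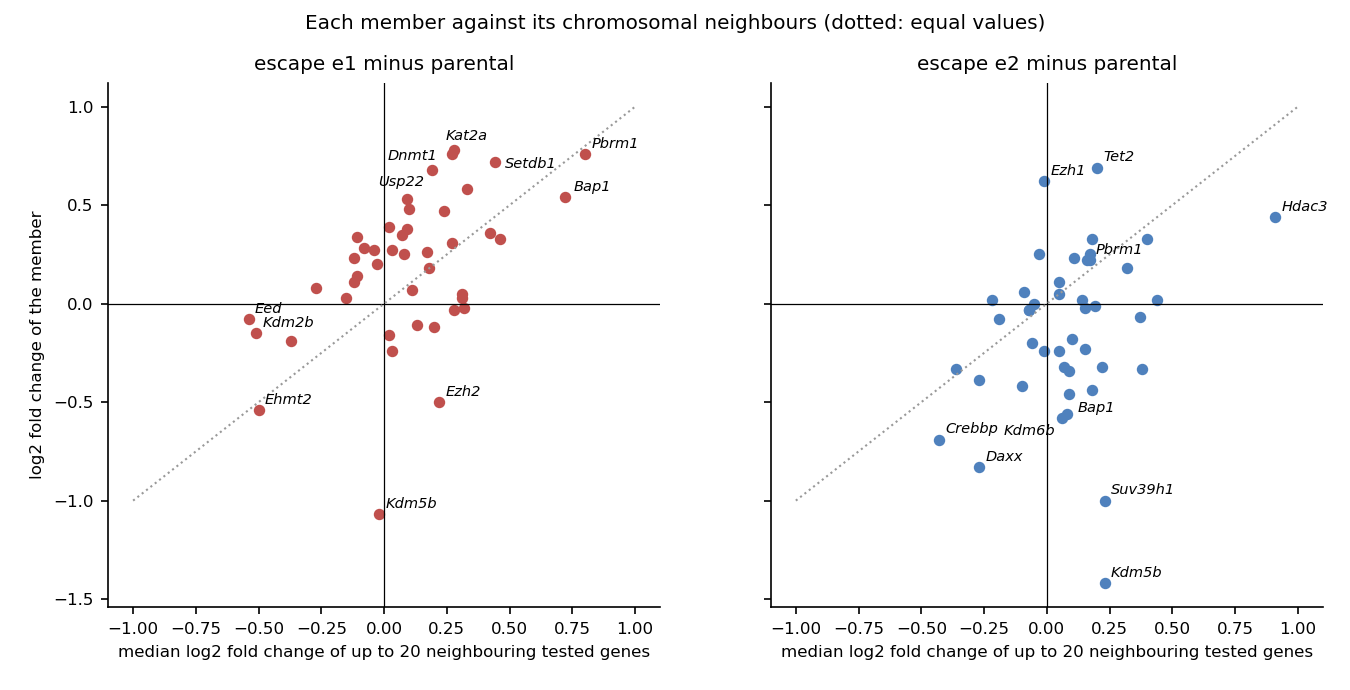
Log2 fold change of each tested regulator (y axis) against the median of up to 20 neighbouring tested genes (x axis), for e1 and e2 minus parental cells; the dotted line marks equal values. Pbrm1, Bap1 and Ehmt2 lie near the line in e1, whereas Kdm5b lies far below it in both panels.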

How the data were processed

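The 9 RNA libraries were grouped, and numbered within their group, by their titles. Per gene, the authors deposited TPM values and, in a second table, rlog values on a log2 scale. Salmon, DESeq2 and mm10 are named per the submitters' processing notes, without version, annotation or strand setting. Since the deposited TPM keeps no depth, no counting interval is given, and a gene at 0 is only listed at 0.

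A gene was tested if 3 or more of the 9 libraries had it at 1 TPM or above, which left 12769 of 24493. Their log2(TPM + 1) values went into limma 3.58.1 (R 4.3.3) with a mean for each of the 3 groups and empirical Bayes moderation, both trended and robust. P-values are two-sided, adjusted by Benjamini-Hochberg over the whole tested table, and a gene passed, and is said to rise or fall, at an adjusted p under 0.05. Fold changes on this scale understate the change of genes near 0. The regulators and the 13 lists of related genes were chosen with earlier results of these data known; no test was made over a list. Named genes follow a rule: every regulator may be named, values per library go to the 8 highest and 8 lowest passing ones per comparison and to fixed genes, and each list gives up to 3 passing genes per direction with a mean of at least 5 TPM. The text gives some of them as means. Gene positions and promoters are from RefSeq tables of GRCm38.p6. The fit was also run on simulated data in which far fewer genes changed than passed here, so that run does not test these calls. Other settings tried were adding 0.1 TPM in place of 1, testing without the filter or with one at 5 TPM, scaling by median ratios, taking out the 10 highest genes, using the rlog table (26 names that had turned into dates left out), fitting the compared groups alone, a replicate block, plain moderation, and dropping each library. A pseudocount of 1 for ratios was chosen after seeing the data.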

Additional observations from a re-analysis of the deposited data

Results flagged for a closer look

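Bap1, Tet3, Trim28, Smarca4, Kdm1a, Cbx1 and Arid1a were higher than parental cells in e1 and lower than parental cells in e2, each passing in both comparisons. The rule that picked these genes also required e2 minus e1 to pass, so that result adds no separate support. The difference between the lines was tested directly as e2 minus e1 in limma. On the log2 scale it was -1.09 ± 0.05 for Bap1 (adjusted p = 6.68e-08), -0.80 ± 0.09 for Tet3 (adjusted p = 4.81e-05), -0.75 ± 0.06 for Trim28 (adjusted p = 4.52e-06), -0.73 ± 0.08 for Smarca4 (adjusted p = 3.27e-05), -0.71 ± 0.06 for Kdm1a (adjusted p = 3.85e-06), -0.69 ± 0.07 for Cbx1 (adjusted p = 2.61e-05) and -0.52 ± 0.09 for Arid1a (adjusted p = 0.000591). In all 7 the 3 libraries of e2 lay below the 3 of e1, which the choice of genes favours. Libraries of the lines did not overlap, in either direction, for 76.5% of all tested genes. The share of all tested genes with such opposite calls was not computed. These 7 differences passed in every alternative run, although the separate falls and rises of Arid1a against parental cells did not.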

How the results depend on the processing

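Of 132 results (44 tested regulators in 3 comparisons), 92 passed, 72 of these under each of the 18 alternatives in which they were fitted, and 20 were lost in at least 1; 0 of the 92 changed sign. Of the 40 that did not pass, 20 passed under some alternative and 18 changed sign, 0 of them passing with the opposite sign. Regulators lower in e1 numbered 4 to 8 when each library was left out, 8 being without e1 library 1. Regulators higher in e2 than in e1 numbered 2 to 7, and were 2 with median-ratio scaling and 1 with rlog values; these settings moved the median of all genes by -0.063 and -0.078.

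Of values that did not pass, some changed sign when each library was left out. In e1, Suz12 lay between -0.1 and 0.03, Suv39h2 between -0.0038 and 0.09, Hdac2 between -0.01 and 0.11, Kdm6b between -0.08 and 0.13, and Crebbp between -0.03 and 0.1. In e2, Dnmt3a lay between -0.05 and 0.1, Cbx3 between -0.06 and 0.01, Kdm2b between -0.02 and 0.04, Kdm5a between -0.01 and 0.06, Kmt2d between -0.16 and 0.07, Ep300 between -0.001 and 0.09, Kat2a between -0.09 and 0.04, and Asxl1 between -0.00071 and 0.04. Other sign changes in e2 were at -0.07 for Dnmt3a, -0.07 for Kdm2b, -0.06 for Kdm5a, -0.02 for Arid2, -0.04 for Ep300 and -0.07 for Asxl1 with median-ratio scaling, and at -0.08, -0.07, -0.07, -0.02, -0.04 and -0.07 for the same genes with rlog values. With the 10 highest genes removed, Cbx3 was at 0.02, Hdac1 at 0.01, Kat2a at 0.04 and Usp22 at 0.02 in e2, and Arid2 at 0.00011 between e2 and e1. Between e2 and e1, Cbx5 was at -0.04 with median-ratio scaling and -0.05 with rlog values. The cause was not tested.

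Library numbers showed no sign of pairing the libraries. Deviations of same-numbered libraries correlated at -0.1304 to 0.0499, and those of differently numbered ones at -0.1608 to 0.1274. With 3 libraries a group this cannot exclude a shared preparation, which the labels do not tell. With a replicate block, 8742, 9163 and 8740 genes passed for e1 against parental cells, e2 against parental cells and e2 against e1, with 27, 31 and 33 regulators among them. Depth is unknown, and 3 libraries a group limit the precision.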
